A study of Mus musculus with 23 samples.

Results

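Gene expression was compared in crypt cells of the mouse small intestine between postnatal day 10 (P10) and the day of birth (P0). The comparison used 6 of the 23 libraries analysed: 3 labelled P10 crypt and 3 labelled P0 crypt, chosen by these labels alone. Both groups were CD1 mice, an outbred stock, and the labels give neither a genotype nor a treatment. Epithelium of the medial small intestine was released with EDTA, and cells positive for both Epcam and CD44 were sorted and called crypt. Epcam is a surface protein of epithelial cells, and CD44 is a surface receptor enriched in proliferating crypt cells. Poly(A) RNA was sequenced with a stranded kit. The labels do not say whether replicates were separate animals, litters or pools, so the p-values reflect only the spread among libraries, which may be technical. At birth the mouse intestine has villi but no crypts, so the label crypt stands for CD44-positive cells of the epithelium between the villi.

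The small intestine is renewed from stem cells in pits between the villi, which deepen into crypts in the weeks after birth. Wnt ligands keep crypt stem cells dividing through beta-catenin and TCF factors, Notch signals hold back secretory fates, and BMP and hedgehog signals act between epithelium and mesenchyme. Paneth cells, which secrete lysozyme and alpha-defensins and also supply Wnt to stem cells, appear only as crypts form. The villi of sucklings carry enterocytes that take up milk fat and whole milk proteins, the latter digested in large lysosomes.

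The 6 libraries held 23545159 to 30333619 counts in genes and 21123 to 22099 genes with at least a count. Values are library-scaled counts (CPM, with TMM factors), which does not correct for gene length, so levels are compared within a gene and never between genes. Fold changes are log2 values of P10 against P0 with their standard errors after ±, and adjusted p-values are from edgeR's quasi-likelihood test with Benjamini-Hochberg adjustment over the 16535 genes tested. A gene is called at an adjusted p below 0.05. The mean GC content of counted transcripts was 48.99% to 49.72% in the 6 libraries, and over genes the fold change had a Spearman correlation of -0.0287 with GC content. P0 crypt replicate 1 stood apart from the other P0 crypt libraries on principal component 1 of the 6 libraries. That component held 56.5% of the variance, and replicate 1 lay at -74.7 against -39.6 and -38.8. The P10 libraries lay at 42.8 to 55.7. The other P0 libraries also differed. On component 2, with 16.2% of the variance, P0 crypt replicates 1, 2 and 3 lay at 40.8, -53.6 and -3.89. Counts of calls in a gene list are given with and without P0 crypt replicate 1, except where both are the same. For called genes, a value without it is given where the call was lost or the fold change moved by over 1.5 times.

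Neither gene of the sorted proteins was called. Cd44 was at 42, 32.4 and 53.9 CPM at P0 and 63.1, 72.6 and 79.4 CPM at P10. Its P10 values lay above all P0 values, by 0.74 ± 0.35 (adjusted p = 0.148), which missed the threshold. Epcam was at 1683, 1513 and 1463 CPM at P0 and 1739, 1747 and 1713 CPM at P10, a change of 0.16 ± 0.14 (adjusted p = 0.482).

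Of all genes tested, 1194 were called higher at P10 (7.22%) and 1635 lower (9.89%), and the median change over all genes was -0.02. Changes past 2-fold made up 730 of the higher and 849 of the lower calls. Without P0 crypt replicate 1, 615 of 16429 genes were called higher (3.74%) and 839 lower (5.11%), of which 575 and 814 were among the calls with all libraries. Leaving out a P10 library also moved the counts, to 682 higher and 830 lower without P10 crypt replicate 1 and to 755 and 946 without replicate 2. Without P10 crypt replicate 3 there were 808 and 1055. Groups that did not overlap in CPM were seen for 3064 genes higher at P10 (18.5%) and 3623 lower (21.9%). With scaling by library totals alone the split turned, with 2023 calls higher and 955 lower (67.9% of calls higher, against 42.2%), as the median of all genes shifted by 0.19. Gene lists are therefore described by their calls and by their median beside that of all genes. In bulk libraries, fewer cells of a type and less RNA per cell cannot be told apart.

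**Figure D1:**
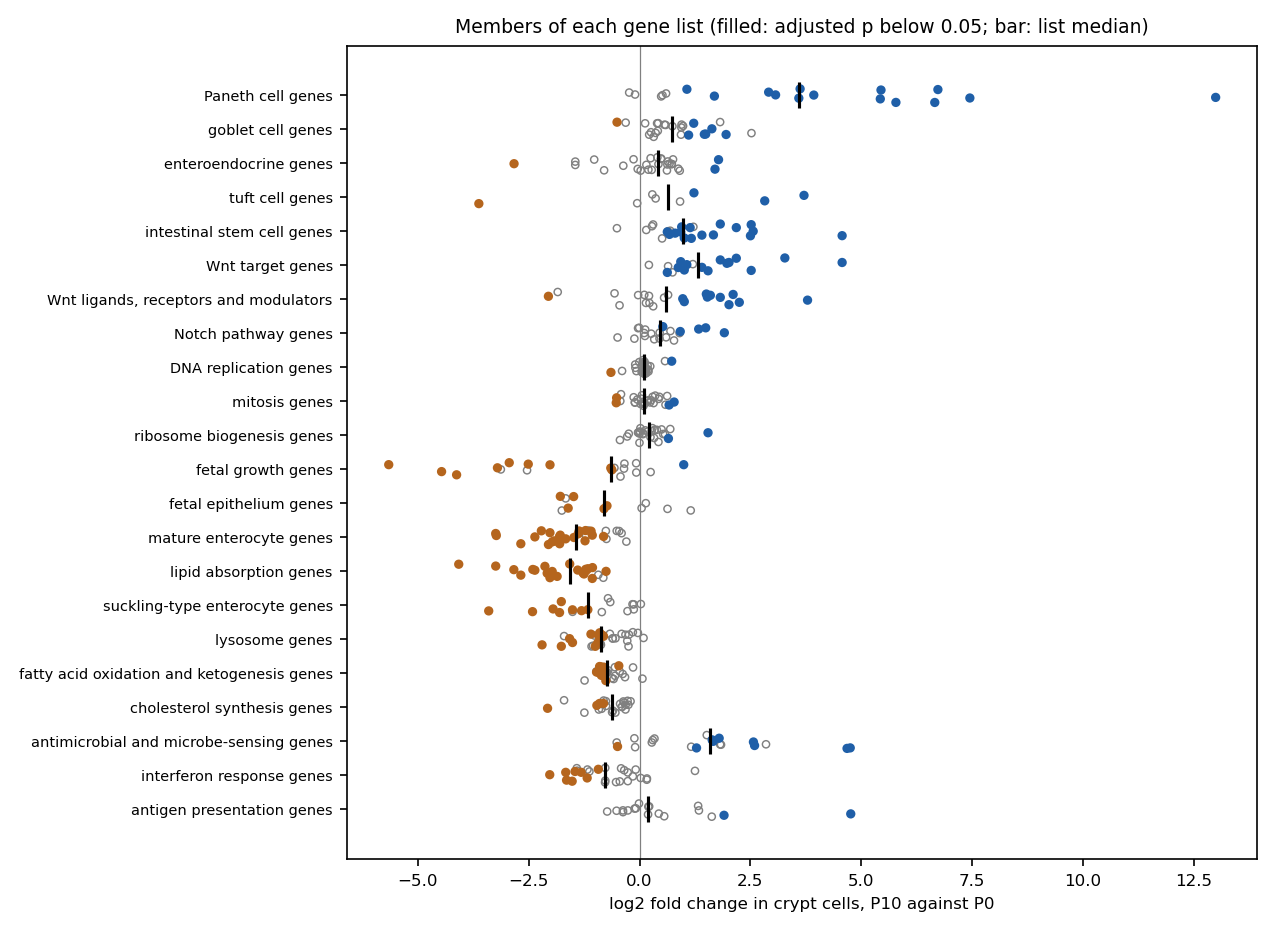
Log2 fold change (x axis) of the tested members of 22 gene lists (rows) in crypt cells, P10 against P0; each point is a gene, filled where its adjusted p is below 0.05 (blue higher, brown lower), and black bars are list medians. The median was 3.59 for Paneth cell genes and 0.98 for stem cell genes, and -1.43 for mature enterocyte genes and -1.57 for lipid absorption genes. The point at 13.0 is Pla2g2a, which had no count at P0, so its position depends on the fitting and is no measure of size.

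Paneth cell genes had the highest median change of the 35 lists. Of 24 listed, 19 passed the filter on low counts. Of these 14 were called higher and none lower, with a median of 3.59 (12 and 3.40 without P0 crypt replicate 1). Their summed level was 533, 666 and 597 CPM in the P0 libraries and 1828, 1912 and 1764 CPM in the P10 libraries, so each P10 library lay above every P0 library.

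Lyz1, the lysozyme of Paneth cells, was at 2.93, 5.36 and 8.31 CPM at P0 and 251, 258 and 208 CPM at P10. It rose by 5.43 ± 0.49 (adjusted p = 8.87e-07), and by 5.12 (adjusted p = 1.65e-05) without P0 crypt replicate 1. The lowest P10 library thus lay far above the highest P0 library. Mmp7, the matrix metalloproteinase that activates alpha-defensins, was at 2, 3.3 and 3.06 CPM at P0 and 22.8, 25 and 22.4 CPM at P10 and rose by 3.07 ± 0.63 (adjusted p = 0.00259). Ang4, a microbicidal angiogenin, was at 1.39, 3.06 and 1.41 CPM at P0 and 37.1, 20.7 and 13 CPM at P10 and rose by 3.59 ± 0.67 (adjusted p = 0.00145). Its P10 libraries differed among themselves more than those of Lyz1 or Mmp7, yet all lay above P0.

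Among the alpha-defensins, short pore-forming peptides of Paneth granules, Defa24 was already plain at birth. It was at 58.7, 78.4 and 87 CPM at P0 and 535, 590.1 and 563 CPM at P10 and rose by 2.91 ± 0.35 (adjusted p = 1.97e-05). Defa17 was at 2.45, 4.58 and 3.36 CPM at P0 and 45.3, 43.7 and 38.9 CPM at P10 and rose by 3.62 ± 0.48 (adjusted p = 6.78e-05). Defa26 was nearly absent at P0, at 0.121, 0.182 and 0.0295 CPM at P0 and 13.2, 13.7 and 9.5 CPM at P10, and rose by 6.73 ± 0.59 (adjusted p = 7.43e-07). Defa22 rose by 5.78 ± 0.59 (adjusted p = 3.66e-06) and AY761184 by 7.45 ± 0.83 (adjusted p = 9.43e-06). Gm15284, a predicted gene of the Paneth list, was at 1.54, 2.03 and 1.38 CPM at P0 and 76, 80.1 and 60.4 CPM at P10 and rose by 5.45 ± 0.61 (adjusted p = 1.42e-05). Alpha-defensin genes are near-identical copies of each other, and how reads with several alignments were counted is not stated, so the share of each copy is uncertain. Of the 5 listed genes that did not pass the filter, Defa3 had 0 counts at P0 and 6 at P10, and Defa5, Defa20, Defa21 and Defa23 had none in the 6 libraries.

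Other Paneth genes varied. Pla2g2a, a secreted phospholipase that kills bacteria, had 0 counts in each P0 library and 3432, 191 and 148 counts in the P10 libraries. Against a floor of 3 counts over the P0 group it was at least 1230-fold higher at P10, and P10 replicate 1 held most of the counts. Without that library it was at least 170-fold higher. Its adjusted p was 0.00217. Habp2, a serine protease that binds hyaluronan, rose by 1.69 ± 0.35 (adjusted p = 0.00288). Itln1, a lectin that binds microbial sugars, was at 136, 145 and 186 CPM at P0 and 277, 387 and 317 CPM at P10 and rose by 1.07 ± 0.33 (adjusted p = 0.03), a call lost without P0 crypt replicate 1 (adjusted p = 0.121). Mptx1, a mucosal pentraxin, was at 134, 189 and 112 CPM at P0 and 184, 198 and 227 CPM at P10, and Cd24a, a surface protein used to sort Paneth cells, at 149, 172 and 151 CPM at P0 and 148, 147 and 146 CPM at P10. Neither was called (adjusted p = 0.516 and 0.774). The Paneth list was thus uneven, since Lyz1 and several defensins rose by over 5 on the log2 scale, and Mptx1 and Cd24a were not called.

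**Figure D2:**
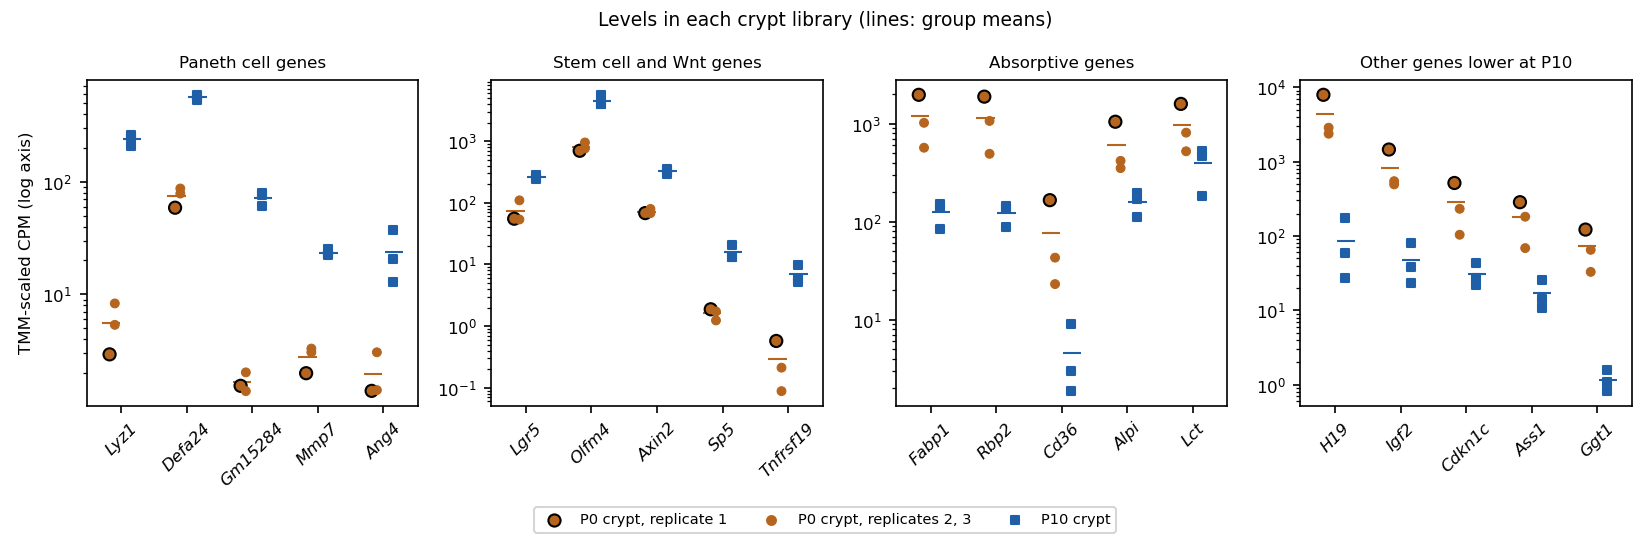
Level of 20 genes in each crypt library (y axes: TMM-scaled CPM, log axes with a range of their own in each panel); circles are P0, with replicate 1 outlined in black, squares are P10, and lines are group means. Lyz1 was at 2.93 to 8.31 CPM at P0 and 208 to 258 CPM at P10, and only Lct had P0 and P10 libraries that overlapped.

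Stem cell genes rose at P10. Of 24 listed, all passed the filter, 16 were called higher and none lower, with a median of 0.98 (12 and 0.84 without P0 crypt replicate 1). Summed over the list, they stood at 2627, 3666 and 3523 CPM in the P0 libraries and 7912, 10671 and 8461 CPM in the P10 libraries, so every P10 library lay above every P0 library.

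Lgr5, the R-spondin receptor that marks crypt stem cells, was at 55.1, 109 and 53.6 CPM at P0 and 242, 251 and 279 CPM at P10. It rose by 1.82 ± 0.33 (adjusted p = 0.000991), and by 1.65 (adjusted p = 0.0104) without P0 crypt replicate 1. Olfm4, a secreted glycoprotein of crypt base cells, was at 696, 949 and 758 CPM at P0 and 4023, 5622 and 3971 CPM at P10. It rose by 2.50 ± 0.41 (adjusted p = 0.00039). Both genes were thus well above the filter at birth and several-fold higher at P10. Ascl2, a transcription factor that maintains stem cells, was at 9.86, 20.3 and 15.2 CPM at P0 and 45.5, 42.3 and 32.7 CPM at P10 and rose by 1.41 ± 0.31 (adjusted p = 0.00401). Smoc2, a matricellular protein of stem cells, was at 36.7, 66.2 and 45.4 CPM at P0 and 159, 172 and 140.2 CPM at P10 and rose by 1.67 ± 0.25 (adjusted p = 0.000178).

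Tnfrsf19, also called Troy, a stem cell receptor, was at 0.575, 0.212 and 0.0884 CPM at P0 and 9.98, 5.84 and 5.2 CPM at P10. It rose by 4.57 ± 0.58 (adjusted p = 4.06e-05), or by 5.51 (adjusted p = 6.22e-05) without P0 crypt replicate 1, from under 1 CPM in each P0 library. Rgmb, a BMP co-receptor, was at 10.7, 11.2 and 10.2 CPM at P0 and 70.8, 67.4 and 51.4 CPM at P10 and rose by 2.56 ± 0.23 (adjusted p = 7.43e-07). Ephb3, a receptor that positions cells along the crypt, was at 7.17, 7.18 and 8.19 CPM at P0 and 48.8, 41.8 and 38.7 CPM at P10 and rose by 2.52 ± 0.26 (adjusted p = 4.75e-06). The 3 P0 libraries were nearly level for Rgmb and for Ephb3. Sox9, a transcription factor of progenitors and Paneth cells, was at 112, 129 and 142 CPM at P0 and 235, 267 and 225 CPM at P10 and rose by 0.93 ± 0.20 (adjusted p = 0.00401). Igfbp4 and Cdca7, both marks of stem cells, rose by 1.17 ± 0.27 (adjusted p = 0.00555) and 0.95 ± 0.22 (adjusted p = 0.00596).

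Not every stem cell gene was called. Slc12a2, an ion transporter, was at 771, 1086 and 1367 CPM at P0 and 1130.2, 2188 and 1896 CPM at P10 and was the uncalled member with the highest mean (adjusted p = 0.318). Soat1, which esterifies cholesterol, was at 139, 209.99 and 116 CPM at P0 and 98.3, 110.1 and 118 CPM at P10 and was the only member with a negative fold change, also uncalled (adjusted p = 0.122).

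Wnt target genes rose with them. The list shares 9 genes with the stem cell list, so the lists are not independent. Of 20 listed, 18 were tested, 14 were called higher and none lower, with a median of 1.31 (11 and 1.32 without P0 crypt replicate 1). Axin2, a feedback inhibitor of Wnt signalling, was at 68, 67.8 and 79.5 CPM at P0 and 331, 357 and 289 CPM at P10 and rose by 2.18 ± 0.28 (adjusted p = 4.63e-05). Sp5, a transcription factor induced by Wnt, was at 1.88, 1.73 and 1.24 CPM at P0 and 20.8, 13.2 and 13 CPM at P10 and rose by 3.28 ± 0.53 (adjusted p = 0.000354). Myc, a growth regulator, was at 64.7, 64.4 and 86.5 CPM at P0 and 247, 213 and 169 CPM at P10 and rose by 1.55 ± 0.32 (adjusted p = 0.00245). Tcf7, a Wnt effector, rose by 1.07 ± 0.25 (adjusted p = 0.00655). Tcf7l2, the main TCF of the gut epithelium, was at 34.6, 51.1 and 41.1 CPM at P0 and 46.2, 50 and 50.6 CPM at P10 and was not called (adjusted p = 0.447). Of the 2 genes under the filter, Lef1 had 0 counts at P0 and 10 at P10, and Nkd2 had 7 and 25.

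Calls among Wnt ligands, receptors and modulators were mostly higher at P10. Of 22 tested, 10 were called higher (45.5%, beside 7.22% of all genes) and 1 lower (4.55%, beside 9.89%). The median was 0.60 (8 and 0, and 0.49, without P0 crypt replicate 1). Wnt3, the ligand made by Paneth cells, was at 3.87, 3.42 and 3.77 CPM at P0 and 19.7, 10.7 and 17.5 CPM at P10 and rose by 2.11 ± 0.29 (adjusted p = 7.94e-05). Wls, which carries Wnt proteins to the cell surface, was at 40, 43.5 and 48.8 CPM at P0 and 76.2, 93.6 and 90.5 CPM at P10 and rose by 0.98 ± 0.23 (adjusted p = 0.00595). Fzd7, a Wnt receptor of stem cells, was at 15.9, 22.9 and 25.7 CPM at P0 and 60.5, 76.8 and 57.8 CPM at P10 and rose by 1.60 ± 0.30 (adjusted p = 0.00133). Rnf43, a ligase that removes Wnt receptors, rose by 1.01 ± 0.19 (adjusted p = 0.00147), so the ligand, a receptor and a receptor inhibitor were higher together. Sfrp5, a secreted Wnt antagonist, was at 2.78, 4.7 and 2.86 CPM at P0 and 24.7, 19.2 and 5.3 CPM at P10 and rose by 2.25 ± 0.54 (adjusted p = 0.0075), with P10 replicate 3 closest to P0. Wnt4 fell by 2.05 ± 0.57 (adjusted p = 0.0181), at under 2 CPM in each library, and lost its call without P0 crypt replicate 1 (adjusted p = 0.0906). Lgr4, a broadly expressed relative of Lgr5, was at 218, 223 and 285 CPM at P0 and 274, 293 and 280.4 CPM at P10 and was not called (adjusted p = 0.627).

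RefSeq promoter windows (GRCm38.p6, from 250 bases before to 50 after each start) were matched by symbol for 13 of the 20 Wnt target genes. A TCF element, searched as CTTTGAT or CTTTGTT on both strands, was in the windows of 3 (23.1%), against 10.6% of all 27025 genes with a window. The 3 are Sp5, Tnfrsf19 and Tcf7l2, the last of which was not called. This search was added after the fold changes were known. The stretches that hold it in Sp5 and Tnfrsf19, the Wnt targets with the largest changes, are shown with the matches in capitals. They are chr2:70474693-70474832 on the plus strand, with 2 matches, and chr14:61038138-61038217 on the minus strand, with 1.
Sp5: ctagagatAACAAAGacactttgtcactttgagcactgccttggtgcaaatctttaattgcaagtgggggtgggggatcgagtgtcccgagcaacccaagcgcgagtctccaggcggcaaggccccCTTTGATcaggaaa
Tnfrsf19: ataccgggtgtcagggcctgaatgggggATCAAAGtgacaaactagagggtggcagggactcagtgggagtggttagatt
A match is a run of letters in the window, and binding there was not measured.

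Some Notch, BMP and hedgehog genes were called. Of 20 Notch pathway genes tested, 5 were called higher and none lower, with a median of 0.45 (3 without P0 crypt replicate 1). Maml2, a co-activator of Notch, was at 1.09, 0.515 and 0.618 CPM at P0 and 2.97, 2 and 3.44 CPM at P10 and rose by 1.91 ± 0.34 (adjusted p = 0.00078). Lfng, which modifies Notch receptors, was at 14, 17.2 and 12.9 CPM at P0 and 37.4, 37.8 and 35.9 CPM at P10 and rose by 1.33 ± 0.32 (adjusted p = 0.00659). Atoh1, the transcription factor that Notch represses and that sets secretory fate, was at 4.42, 7.33 and 5.65 CPM at P0 and 13.2, 18.5 and 17.3 CPM at P10 and rose by 1.49 ± 0.35 (adjusted p = 0.00586). Hes1, the repressor induced by Notch, was at 150.1, 246 and 142 CPM at P0 and 223, 128 and 145 CPM at P10 and overlapped between groups. Notch1, the receptor, was at 66, 82.9 and 73.5 CPM at P0 and 90.7, 145 and 101 CPM at P10 and missed the threshold (adjusted p = 0.0928). Of 21 BMP and hedgehog genes, 3 were called higher and 1 lower (2 and 1 without P0 crypt replicate 1). These are 14.3% and 4.76% with all libraries, beside 7.22% and 9.89% of all genes. Bmp2, a ligand, was at 12.6, 19 and 12.5 CPM at P0 and 8.64, 6.33 and 7.58 CPM at P10 and fell by 0.97 ± 0.30 (adjusted p = 0.0297), while Bmp3, a ligand that opposes other BMPs, was at 51.1, 33.5 and 53.8 CPM at P0 and 60.2, 87.9 and 87.9 CPM at P10 and rose by 0.77 ± 0.22 (adjusted p = 0.0227). The hedgehog receptor Ptch1 rose by 0.70 ± 0.20 (adjusted p = 0.0235) and its partner Smo by 0.86 ± 0.26 (adjusted p = 0.0252). Both lost their calls without P0 crypt replicate 1 (adjusted p = 0.14 and 0.124).

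Few genes of cell division were called. Of 28 mitosis genes, 2 were called higher and 2 lower (7.14% each, beside 7.22% and 9.89% of all genes), with a median of 0.10, and none were called without P0 crypt replicate 1. The mitosis genes summed to 2897, 3185 and 3729.5 CPM in the P0 libraries and 3784, 4266 and 3516 CPM in the P10 libraries. Of 27 DNA replication genes, 1 was called in each direction (3.7% each), with a median of 0.10 (0 higher and 2 lower without P0 crypt replicate 1). These genes summed to 2144, 2482 and 2749 CPM in the P0 libraries and 2588, 2806 and 2522 CPM in the P10 libraries, so the groups overlapped for both lists. Mki67, a mark of dividing cells, was at 291, 519.8 and 484 CPM at P0 and 749.7, 858 and 617 CPM at P10 and rose by 0.78 ± 0.25 (adjusted p = 0.0343). The call was lost without P0 crypt replicate 1 (adjusted p = 0.183). Top2a, which untangles chromosomes, was at 399, 499.9 and 629 CPM at P0 and 598, 733 and 573 CPM at P10 and was not called (adjusted p = 0.331). Ccnb1, the mitotic cyclin, was at 43.3, 34.9 and 44.7 CPM at P0 and 28.8, 28.6 and 28.1 CPM at P10 and Birc5, which encodes survivin, at 108, 105 and 98.3 CPM at P0 and 79.9, 70.6 and 66.9 CPM at P10. They fell by 0.52 ± 0.17 (adjusted p = 0.041) and 0.52 ± 0.15 (adjusted p = 0.0256). Both calls were lost without P0 crypt replicate 1 (adjusted p = 0.13 and 0.0849). Rrm2, a subunit that makes deoxynucleotides, was at 59.3, 80.1 and 88.9 CPM at P0 and 47, 54.1 and 45 CPM at P10 and fell by 0.64 ± 0.18 (adjusted p = 0.016), while Pole, the leading-strand polymerase, rose by 0.73 ± 0.20 (adjusted p = 0.0164), a call lost without P0 crypt replicate 1 (adjusted p = 0.107). Of 26 ribosome biogenesis genes, 2 were called higher (7.69%, beside 7.22% of all genes). They were Myc and the RNA polymerase I subunit Polr1a (0.65 ± 0.20 (adjusted p = 0.0293)), and Polr1a lost its call without P0 crypt replicate 1 (adjusted p = 0.166). Scaling by library totals alone called 9 of the 26 higher. Among 12 cell cycle inhibitors, Cdkn2c rose by 1.36 ± 0.32 (adjusted p = 0.00612) and Cdkn1c fell, as given with the fetal growth genes.

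In the other secretory lineages, goblet cell genes rose in part. Of 25 tested, 6 were called higher and 1 lower, with a median of 0.74 (5 and 0, and 0.59, without P0 crypt replicate 1). These are 24.0% and 4.0% with all libraries, beside 7.22% and 9.89% of all genes. Muc2, the gel-forming mucin, was at 31.2, 42.9 and 32.4 CPM at P0 and 94.3, 121 and 115 CPM at P10 and rose by 1.63 ± 0.28 (adjusted p = 0.000566). Spink4, a peptide of goblet granules, was at 39.5, 85.1 and 50.7 CPM at P0 and 239, 226 and 214 CPM at P10 and rose by 1.95 ± 0.44 (adjusted p = 0.00445). Ern2, a stress sensor of mucous cells, was at 4.23, 9.55 and 7.75 CPM at P0 and 18.2, 21.1 and 20.1 CPM at P10 and rose by 1.46 ± 0.34 (adjusted p = 0.00583). Unlike Muc2, Tff3, a trefoil peptide of the same granules, was at 122, 208 and 129 CPM at P0 and 211, 191 and 171 CPM at P10 and was not called (adjusted p = 0.614). Fcgbp, a mucus protein, was at 398, 379.98 and 522 CPM at P0 and 395, 794 and 552 CPM at P10 and was not called either.

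Enteroendocrine genes had wide spreads. Of 28 tested, 2 were called higher and 1 lower (7.14% and 3.57%, beside 7.22% and 9.89% of all genes). The median was 0.42 (3 and 0, and 0.87, without P0 crypt replicate 1). Their summed level was 2240.2, 786 and 692 CPM in the P0 libraries and 2252, 818 and 1393 CPM in the P10 libraries, so replicate 1 was highest in both groups. Gcg, which encodes the precursor of glucagon-like peptides, was at 14.2, 7.03 and 9.93 CPM at P0 and 51.3, 25.7 and 24.5 CPM at P10 and rose by 1.70 ± 0.38 (adjusted p = 0.00432). Nts, neurotensin, was at 17.8, 4.15 and 5.33 CPM at P0 and 52, 16 and 25.7 CPM at P10 and rose by 1.78 ± 0.60 (adjusted p = 0.0464), although P0 replicate 1 overlapped P10. Without P0 crypt replicate 1 it rose by 2.72 (adjusted p = 0.0118). Ghrl, ghrelin, was at 36.4, 13.4 and 5.42 CPM at P0 and 4.86, 0.986 and 1.89 CPM at P10 and fell by 2.83 ± 0.85 (adjusted p = 0.0281), a call lost without P0 crypt replicate 1 (adjusted p = 0.182). Chga and Gip, a granule protein and an incretin hormone, overlapped between groups, at 59.5, 20.2 and 24.8 CPM at P0 and 81.7, 40.7 and 54 CPM at P10 for Chga and 976, 344 and 240.01 CPM at P0 and 1328, 343 and 724 CPM at P10 for Gip. Of 13 tuft cell genes 8 were tested, 3 called higher and 1 lower (2 and 0 without P0 crypt replicate 1). These are 37.5% and 12.5% with all libraries, beside 7.22% and 9.89% of all genes. Pou2f3, the transcription factor that sets tuft fate, was at 0.151, 0.333 and 0.265 CPM at P0 and 2.14, 1.75 and 1.49 CPM at P10 and rose by 2.82 ± 0.46 (adjusted p = 0.000378). Sh2d6 had 3 counts over the P0 libraries and 45 over the P10 libraries, a ratio of 14.6 (95% counting interval 4.70 to 73.6). Dclk1, a mark of mature tuft cells, was at 0.0605, 0.0606 and 0.0295 CPM at P0 and 0.0834, 0.0822 and 0.132 CPM at P10 and was not called (adjusted p = 0.408).

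Genes of mature enterocytes fell in CD44-positive cells. All 30 listed were tested. At P10 22 were called lower and none higher, with a median of -1.43, and every fold change was negative. Their summed level was 48011, 15257 and 26004 CPM in the P0 libraries and 6796, 10248 and 11844 CPM in the P10 libraries, so P0 crypt replicate 1 was highest. Without that library 11 were called lower, with a median of -1.04.

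Fabp1, the liver-type fatty acid binding protein, was at 1974, 569 and 1023 CPM at P0 and 84.1, 142 and 150.4 CPM at P10. It fell by 3.24 ± 0.46 (adjusted p = 0.00013), and by 2.67 (adjusted p = 0.000908) without P0 crypt replicate 1. Fabp2, the intestinal form, was at 3492, 1021 and 2087 CPM at P0 and 262, 321 and 449.6 CPM at P10 and fell by 2.68 ± 0.38 (adjusted p = 0.000115). Rbp2, which binds vitamin A in enterocytes, was at 1891, 493 and 1068 CPM at P0 and 87.8, 137 and 144 CPM at P10 and fell by 3.23 ± 0.46 (adjusted p = 0.000121). For each of these genes all P10 libraries lay below all P0 libraries. Alpi, the intestinal alkaline phosphatase, was at 1048, 352 and 418 CPM at P0 and 111, 172 and 197 CPM at P10 and fell by 1.92 ± 0.40 (adjusted p = 0.00263), or by 1.27 (adjusted p = 0.0308) without P0 crypt replicate 1. Anpep, a brush border peptidase, was at 2939, 1963 and 3697 CPM at P0 and 712, 1293 and 1298 CPM at P10 and fell by 1.38 ± 0.28 (adjusted p = 0.00214). Slc5a1, the sodium-glucose transporter, was at 476, 311 and 323 CPM at P0 and 156, 180.3 and 185 CPM at P10 and fell by 1.09 ± 0.20 (adjusted p = 0.00125). Vil1, which bundles actin in microvilli, was at 1101, 946 and 1125 CPM at P0 and 759.8, 979.8 and 844 CPM at P10 and was not called (adjusted p = 0.277), so the brush border genes did not all move.

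Lipid absorption genes also fell, and 7 of them are in the enterocyte list too. Of 23 tested, 21 were called lower, with a median of -1.57 (13 and -1.05 without P0 crypt replicate 1). Cd36, a fatty acid receptor, was at 166, 23.1 and 42.9 CPM at P0 and 1.86, 3.01 and 8.97 CPM at P10. It fell by 4.08 ± 0.77 (adjusted p = 0.00146), and by 2.85 (adjusted p = 0.0103) without P0 crypt replicate 1. Mogat2 and Dgat2, which rebuild triglyceride from absorbed fat, were at 409.97, 174 and 276 CPM at P0 and 50.5, 69.9 and 75.7 CPM at P10 for Mogat2 and 1241, 295 and 619.6 CPM at P0 and 92.3, 127 and 188 CPM at P10 for Dgat2. They fell by 2.13 ± 0.33 (adjusted p = 0.000284) and 2.41 ± 0.43 (adjusted p = 0.000922), the latter by 1.76 (adjusted p = 0.00917) without P0 crypt replicate 1. Mttp, which loads lipid onto apolipoprotein B, was at 2975, 1167 and 2310.2 CPM at P0 and 423, 682 and 675 CPM at P10 and fell by 1.86 ± 0.35 (adjusted p = 0.00125). Creb3l3, a transcription factor of lipid metabolism, was at 639, 245 and 558 CPM at P0 and 79.3, 126 and 135 CPM at P10 and fell by 2.08 ± 0.30 (adjusted p = 0.000155). Apoc2, an apolipoprotein of chylomicrons, was at 957, 175 and 336 CPM at P0 and 56.2, 59.1 and 90.6 CPM at P10 and fell by 2.83 ± 0.62 (adjusted p = 0.0043), or by 1.90 (adjusted p = 0.0366) without P0 crypt replicate 1. The sterol exporters Abcg5 and Abcg8 overlapped between groups and were the uncalled members (adjusted p = 0.129 and 0.23).

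Apoa4 and Apob, the apolipoproteins that coat and frame chylomicrons, fell less firmly. Apoa4 was at 16759.9, 2719 and 5754 CPM at P0 and 1319.8, 2198 and 2931 CPM at P10 and fell by 1.97 ± 0.56 (adjusted p = 0.0213). Apob was at 2249, 1106 and 2327 CPM at P0 and 491, 1086 and 1138 CPM at P10 and fell by 1.06 ± 0.36 (adjusted p = 0.0483). The groups overlapped for both, and both calls were lost without P0 crypt replicate 1 (adjusted p = 0.252 and 0.165). These genes are described because their promoter windows were the 2 of 18 matched lipid absorption genes (11.1%) that held an HNF4 element, against 4.13% of all genes. The element was searched as CAAAGTCC, CAAAGGTC or CAAAGTTC on both strands, also after the fold changes were known. The stretches, with matches in capitals, are chr9:46240634-46240713 and chr12:7977547-7977626, both on the plus strand.
Apoa4: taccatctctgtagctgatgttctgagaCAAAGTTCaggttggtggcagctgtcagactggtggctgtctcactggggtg
Apob: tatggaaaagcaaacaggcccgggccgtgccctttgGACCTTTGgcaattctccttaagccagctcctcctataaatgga
Hnf4a, which encodes a factor of the enterocyte programme, was at 723, 859.9 and 929 CPM at P0 and 966, 1130.3 and 893 CPM at P10 and was not called (adjusted p = 0.263).

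The calls among fatty acid oxidation and cholesterol synthesis genes were all lower at P10. Of 23 oxidation and ketogenesis genes, 9 were called lower, with a median of -0.73 (4 and -0.61 without P0 crypt replicate 1). Acadl, an acyl-CoA dehydrogenase, was at 723, 380.4 and 717 CPM at P0 and 290.2, 314 and 327 CPM at P10 and fell by 0.97 ± 0.23 (adjusted p = 0.00651), and Cpt2, which imports acyl groups into mitochondria, fell by 0.90 ± 0.20 (adjusted p = 0.0046). Of 24 cholesterol synthesis genes, 4 were called lower (16.7%, beside 9.89% of all genes), and 3 without P0 crypt replicate 1. Their median was -0.61, and no fold change was positive. Insig1, which holds back sterol synthesis, was at 127, 226 and 76.2 CPM at P0 and 34.4, 37.8 and 29.8 CPM at P10 and fell by 2.07 ± 0.45 (adjusted p = 0.00372). A sterol element, searched as TCACNCCAC on both strands, was in 1 of 16 promoter windows matched (6.25%), against 1.44% of all genes.

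Genes of the suckling-type enterocyte and of lysosomes were lower at P10, with fewer calls once P0 crypt replicate 1 was left out. Lower calls over all genes also fell then, from 1635 to 839. Of 17 suckling-type genes, 8 were called lower, with a median of -1.16 (4 and -0.55 without it). Ass1, which makes argininosuccinate for arginine synthesis, was at 284, 181 and 68.7 CPM at P0 and 10.8, 14.2 and 25.7 CPM at P10 and fell by 3.40 ± 0.63 (adjusted p = 0.00125). Lct, lactase, was at 1595, 524 and 811 CPM at P0 and 183, 474 and 527 CPM at P10 and fell by 1.31 ± 0.42 (adjusted p = 0.0395). The groups overlapped, and without P0 crypt replicate 1 the change was not called (adjusted p = 0.287). Fcgrt, the neonatal receptor that carries maternal IgG, was at 1993, 299 and 567 CPM at P0 and 229, 371 and 404 CPM at P10 and missed the threshold (adjusted p = 0.0617). Its groups overlapped, with P0 crypt replicate 1 far above the other P0 libraries. Its log2 fold change of -1.51 ran from -1.94 to -0.372 over 14 alternative fits. Cps1, which makes carbamoyl phosphate, was at 6167, 7029 and 7380.4 CPM at P0 and 4811, 6537 and 5712 CPM at P10, with overlapping groups. Prdm1, a repressor that holds the suckling state, was at 87.9, 123 and 139.9 CPM at P0 and 95, 113 and 112 CPM at P10 and was not called (adjusted p = 0.685).

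Of 29 lysosome genes, 11 were called lower and none higher, with a median of -0.87. Without P0 crypt replicate 1, 3 were called and the median was -0.42. The list summed to 10432, 4985 and 4596 CPM in the P0 libraries and 3159, 3543 and 4087 CPM in the P10 libraries, so that library stood far above the rest. Glb1, the lysosomal beta-galactosidase, was at 588, 283 and 233 CPM at P0 and 91.1, 97.7 and 137 CPM at P10 and fell by 1.76 ± 0.36 (adjusted p = 0.0023). Lipa, the acid lipase, was at 219.7, 40.9 and 132 CPM at P0 and 22.9, 23.6 and 39.1 CPM at P10 and fell by 2.20 ± 0.49 (adjusted p = 0.00436), or by 1.60 without P0 crypt replicate 1. Gla, the alpha-galactosidase, was at 39.3, 61.6 and 29 CPM at P0 and 13.3, 14 and 16.3 CPM at P10 and fell by 1.58 ± 0.30 (adjusted p = 0.00146). These 3 genes stayed called without P0 crypt replicate 1 (adjusted p = 0.0247, 0.0376 and 0.00465). Of 12 adult-type enterocyte genes, only Duox2, given with the defence genes, was called (8.33% higher, beside 7.22% of all genes). Sis, the sucrase of weaned animals, was at 15.8, 3.73 and 6.42 CPM at P0 and 11.7, 8.25 and 10.8 CPM at P10 and was not called.

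Fetal growth genes held some of the deepest falls. Of 20 listed, 19 were tested, 9 were called lower and 1 higher, with a median of -0.65 (7 and 1, and -0.73, without P0 crypt replicate 1). H19, an imprinted non-coding RNA, was at 7879, 2848 and 2363 CPM at P0 and 59.5, 27.3 and 173 CPM at P10. It fell by 5.65 ± 0.85 (adjusted p = 0.000235), and by 4.91 (adjusted p = 0.000881) without P0 crypt replicate 1. Igf2, the growth factor of the same imprinted locus, was at 1449.5, 545 and 493 CPM at P0 and 38.3, 23.3 and 81 CPM at P10. It fell by 4.12 ± 0.52 (adjusted p = 4.14e-05), and by 3.45 (adjusted p = 0.000191) without that library. P10 replicate 3 kept the highest level of both genes among the P10 libraries. Igf2os, antisense to Igf2, was at 88.6, 46.4 and 65.5 CPM at P0 and 1.53, 1.32 and 5.06 CPM at P10 and fell by 4.68 ± 0.58 (adjusted p = 4.06e-05). The strand setting of the counting is not stated, so its reads and those of Igf2 cannot be told apart.

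Cdkn1c, an imprinted cell cycle inhibitor, was at 515, 232 and 104 CPM at P0 and 22.1, 27.3 and 43 CPM at P10 and fell by 3.20 ± 0.50 (adjusted p = 0.000325), or by 2.45 (adjusted p = 0.00219) without P0 crypt replicate 1. Plagl1, an imprinted zinc finger gene, was at 53.6, 45 and 62 CPM at P0 and 10.4, 11.8 and 17.5 CPM at P10 and fell by 2.02 ± 0.44 (adjusted p = 0.00418). Igf2bp1, an RNA-binding protein of fetal tissues, was at 42.6, 68.5 and 57.5 CPM at P0 and 4.14, 6.52 and 11.4 CPM at P10 and fell by 2.94 ± 0.64 (adjusted p = 0.00415). These 3 genes were lower in every P10 library. Lin28b, which blocks let-7 maturation, was below 1 CPM in each library, at 0.454, 0.364 and 0.236 CPM at P0 and 0.111, 0.0274 and 0.0331 CPM at P10, and fell by 2.51 ± 0.75 (adjusted p = 0.0272). Igf1r, the receptor through which Igf2 acts, went the other way, at 42.6, 54.5 and 59.6 CPM at P0 and up to 111 CPM at P10, with each P10 library above every P0 library, and rose by 0.997 ± 0.18 (adjusted p = 0.000781). Among 21 growth factor ligands and receptors, 5 were called higher and 1 lower (2 and 0 without P0 crypt replicate 1). These are 23.8% and 4.76% with all libraries, beside 7.22% and 9.89% of all genes. Fgfr1, a fibroblast growth factor receptor, rose by 1.64 ± 0.43 (adjusted p = 0.0135) and Fgfr2 by 0.73 ± 0.21 (adjusted p = 0.0222), and Fgfr2 lost its call without P0 crypt replicate 1 (adjusted p = 0.135). Of 14 fetal epithelium genes 11 were tested and 5 called lower (4 without P0 crypt replicate 1). Cldn4, a tight junction protein, was at 191, 347 and 207 CPM at P0 and 88.4, 73.3 and 82.8 CPM at P10 and fell by 1.61 ± 0.29 (adjusted p = 0.000895). Anxa2, a membrane-binding protein, was at 294, 199.99 and 222 CPM at P0 and 125, 132 and 154 CPM at P10 and fell by 0.80 ± 0.18 (adjusted p = 0.00415), and Gja1, a gap junction protein, fell by 1.79 ± 0.41 (adjusted p = 0.00499).

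Several defence genes rose, and interferon response genes fell in the fit with all libraries. Of 25 antimicrobial and microbe-sensing genes 20 were tested, 8 were called higher and 1 lower, with a median of 1.58 (8 and 0, and 1.63, without P0 crypt replicate 1). Pigr, which carries IgA across the epithelium, was at 429, 475 and 512 CPM at P0 and 1529, 1820.5 and 1132 CPM at P10 and rose by 1.66 ± 0.29 (adjusted p = 0.000752). Ccl28, a chemokine of mucosal plasma cells, was at 19.3, 19.1 and 28.4 CPM at P0 and 50.7, 56.3 and 55.8 CPM at P10 and rose by 1.29 ± 0.29 (adjusted p = 0.00519). Tlr3, a sensor of double-stranded RNA, was at 2.66, 2.27 and 3.71 CPM at P0 and 10.1, 10.3 and 9.63 CPM at P10 and rose by 1.80 ± 0.29 (adjusted p = 0.000338). Duox2, an oxidase of the apical membrane, was at 0.938, 1.79 and 1.33 CPM at P0 and 9.61, 7.51 and 7.41 CPM at P10 and rose by 2.60 ± 0.58 (adjusted p = 0.00445). Reg3a, a bactericidal lectin, was at 0.242, 0.424 and 1.09 CPM at P0 and 3.64, 3.92 and 2.95 CPM at P10 and rose by 2.57 ± 0.53 (adjusted p = 0.00248). Reg3g, its relative, was at 5.11, 2.36 and 12.4 CPM at P0 and 65.7, 35.6 and 42.7 CPM at P10 without overlap, but missed the threshold (adjusted p = 0.1). Camp, the cathelicidin, had 1 count over the P0 libraries and 13 in each P10 library, a ratio of 38.1 (95% counting interval 6.44 to 1540.0).

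Of 27 interferon response genes, 8 were called lower and none higher, with a median of -0.77. None were called without P0 crypt replicate 1, where the median was -0.42. Rsad2, an antiviral enzyme, was at 13, 1.91 and 4.21 CPM at P0 and 1.89, 1.34 and 1.46 CPM at P10, so that library alone was far above P10. Without it the change was -0.97 (adjusted p = 0.281). The same library had the highest summed level of immune cell markers, mostly from the gene Csf1r. The markers are given with the other cell types, and the part of these in the result was not tested. An interferon element, searched as GAAANNGAA on both strands, was in 12 of 19 promoter windows matched (63.2%), against 9.76% of all genes. Of 18 antigen presentation genes, 2 were called higher (11.1%, beside 7.22% of all genes) and none lower. Without P0 crypt replicate 1, 4 were called higher, beside 3.74% of all genes. Ciita, the master regulator of class II genes, was at 0.0605, 0 and 0.0884 CPM at P0 and 1.25, 1.7 and 1.46 CPM at P10 and rose by 4.76 ± 0.72 (adjusted p = 0.000205). Cd74, the class II invariant chain, was at 3.63, 0.576 and 0.884 CPM at P0 and 3.67, 2.96 and 6.29 CPM at P10 and was not called (adjusted p = 0.108). Without P0 crypt replicate 1 Cd74 rose by 2.55 (adjusted p = 0.00799), and H2-Aa and H2-Ab1, the class II chains it escorts, were also called (adjusted p = 0.0171 and 0.0334).

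Adhesion and cytoskeleton genes moved both ways. Of 25 integrin, laminin and basement membrane genes, 6 were called higher and 5 lower, with a median of 0.06 (3 and 2, and 0.12, without P0 crypt replicate 1). These are 24.0% and 20.0% with all libraries, beside 7.22% and 9.89% of all genes. Itga1, a collagen-binding integrin chain, was at 1.18, 0.909 and 2.97 CPM at P0 and 6.67, 10.4 and 7.08 CPM at P10 and rose by 2.25 ± 0.41 (adjusted p = 0.00103). Lamb3, a laminin chain of epithelia, was at 2.42, 2.52 and 3.86 CPM at P0 and 11.5, 13.7 and 9.17 CPM at P10 and rose by 1.97 ± 0.36 (adjusted p = 0.000971), while Lama1, the laminin chain of embryonic basement membranes, was at 1.33, 0.606 and 0.795 CPM at P0 and 0.111, 0.0548 and 0.0662 CPM at P10 and fell by 3.48 ± 0.62 (adjusted p = 0.000933). Itga6, a laminin-binding chain, was at 169, 179 and 234 CPM at P0 and 324, 393 and 361 CPM at P10 and rose by 0.89 ± 0.27 (adjusted p = 0.0293), and Itgb4, its partner in hemidesmosomes, was at 118, 97.9 and 96.6 CPM at P0 and 105, 125 and 105 CPM at P10 and was not called. Col4a1, the basement membrane collagen, was at 12.3, 1.91 and 2.44 CPM at P0 and 0.722, 0.0274 and 0.166 CPM at P10 and fell by 4.15 ± 0.84 (adjusted p = 0.00232), or by 2.81 (adjusted p = 0.0272) without P0 crypt replicate 1. Actb, beta-actin, was at 3663, 4094 and 3217 CPM at P0 and 1772, 1686 and 1718 CPM at P10, falling by 1.08 ± 0.17 (adjusted p = 0.000269). Rac1, the GTPase of cell protrusions, was at 280.3, 284 and 271 CPM at P0 and 216, 224 and 225 CPM at P10 and fell by 0.33 ± 0.11 (adjusted p = 0.0389), and Myh9, non-muscle myosin, was at 529.9, 714 and 716 CPM at P0 and 941, 1105 and 937 CPM at P10 and rose by 0.61 ± 0.20 (adjusted p = 0.0421). The calls of Itga6, Rac1 and Myh9 were lost without P0 crypt replicate 1 (adjusted p = 0.125, 0.094 and 0.193). Those of Rac1 and Myh9 were also lost without any other of the 6 crypt libraries, and that of Itga6 in 5 of these 6 fits. Of 25 cell junction genes, 1 was called higher and 2 lower (0 and 1 without P0 crypt replicate 1). These are 4.0% and 8.0% with all libraries, beside 7.22% and 9.89% of all genes. Cdh1, E-cadherin, at 1059, 962 and 1083 CPM at P0 and 1089, 1302 and 1169.5 CPM at P10, was not called.

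Intestinal transcription factors were called in both directions. Of 30 tested, 2 were called higher (6.67%, beside 7.22% of all genes) and 6 lower (20.0%, beside 9.89%), with a median of -0.03. These counts were 2 and 4 without P0 crypt replicate 1. Vdr, the vitamin D receptor, was at 109, 83.5 and 72.1 CPM at P0 and 262, 265 and 157 CPM at P10 and rose by 1.37 ± 0.22 (adjusted p = 0.00034). Foxa2 was at 1.94, 2.12 and 2 CPM at P0 and 5.95, 6.88 and 5.36 CPM at P10 and rose by 1.58 ± 0.31 (adjusted p = 0.0016). Pdx1, a factor of the proximal gut, was at 5.84, 3.79 and 3.95 CPM at P0 and 2.08, 1.81 and 1.92 CPM at P10 and fell by 1.22 ± 0.36 (adjusted p = 0.0248), a call lost without P0 crypt replicate 1 (adjusted p = 0.124). Cdx2, the factor of intestinal identity, was at 273, 329 and 326 CPM at P0 and 357, 329 and 298 CPM at P10 and was not called (adjusted p = 0.788).

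Outside the lists, the largest changes by the naming rule included genes of other functions. A2m, a protease inhibitor of plasma, was at 4.54, 5.06 and 10.9 CPM at P0 and 39.3, 63.4 and 72.9 CPM at P10 and rose by 3.10 ± 0.39 (adjusted p = 4.06e-05). Ly6e, a membrane-anchored protein, was at 14.1, 9.52 and 9.75 CPM at P0 and 65.4, 104 and 63.7 CPM at P10 and rose by 2.81 ± 0.31 (adjusted p = 9.1e-06). Pcdh8, a protocadherin, was at 5.35, 10.6 and 7.69 CPM at P0 and 55.4, 51.9 and 54.1 CPM at P10 and rose by 2.77 ± 0.35 (adjusted p = 4.15e-05). In each of these genes the lowest P10 library was above the highest P0 library, which the naming rule required.

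Scd2, a fatty acid desaturase, was at 1388, 2645 and 94.3 CPM at P0 and 18.8, 4.47 and 27.4 CPM at P10. It fell by 6.35 ± 1.51 (adjusted p = 0.00814), with P0 replicate 3 well below the other P0 libraries. Ggt1, a glutathione-cleaving enzyme, was at 122, 65.1 and 32.9 CPM at P0 and 1.08, 0.822 and 1.59 CPM at P10 and fell by 5.98 ± 0.78 (adjusted p = 6.64e-05). Afp, the fetal serum protein, was at 134, 23.4 and 7.98 CPM at P0 and 2.92, 2.22 and 2.09 CPM at P10 and fell by 4.51 ± 0.79 (adjusted p = 0.000839), or by 2.70 (adjusted p = 0.00411) without P0 crypt replicate 1. The fall of Afp was thus smaller without that library. Egln3, an oxygen-sensing hydroxylase, was at 89, 245 and 94.2 CPM at P0 and 8.64, 8.14 and 11.2 CPM at P10 and fell by 3.94 ± 0.42 (adjusted p = 6.35e-06). Enpp3, an ectonucleotidase, was at 166, 27.7 and 14.3 CPM at P0 and 5.28, 6.33 and 5.73 CPM at P10 and fell by 3.58 ± 0.69 (adjusted p = 0.00164), or by 1.86 (adjusted p = 0.0143) without P0 crypt replicate 1.

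**Figure D3:**
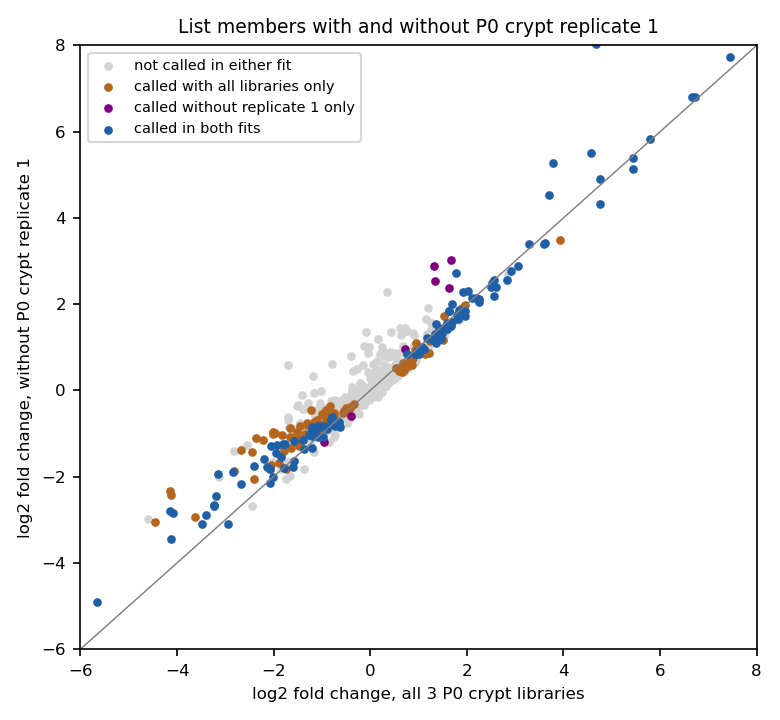
Log2 fold change of the 654 tested list members with all 3 P0 crypt libraries (x axis) and without P0 crypt replicate 1 (y axis); each point is a gene, coloured by the fits that called it, and the line marks equal values. Of these genes 116 were called in both fits, 94 only with all libraries, 7 only without replicate 1 and 437 in neither, and 3 points lie outside the axes.

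Markers of other cell types were low, and their summed levels were highest in P0 crypt replicate 1. The 18 immune cell markers summed to 96.6, 22.9 and 36.4 CPM in the P0 libraries and 20.1, 15.9 and 20.3 CPM in the P10 libraries. Of 14 tested, 1 was called higher and 3 lower (1 and 1 without P0 crypt replicate 1). These are 7.14% and 21.4% with all libraries, beside 7.22% and 9.89% of all genes. Csf1r, the macrophage growth factor receptor, was at 82.6, 11.3 and 21.5 CPM at P0 and 3.08, 4.11 and 5.76 CPM at P10 and fell by 3.16 ± 0.64 (adjusted p = 0.00259), or by 1.93 (adjusted p = 0.0244) without P0 crypt replicate 1. Csf1r thus made up most of the immune sum in that library. The other immune markers differed among the P0 libraries. Laptm5 (89, against 36 and 61), Coro1a (34, against 5 and 17), Tyrobp (25, against 10 and 21) and Fcer1g (26, against 5 and 12) also had their highest P0 counts there. So did Lyz2 (36, against 3 and 35), Cd53, Cd52 and Cd3g, the last 3 at 11 counts or fewer. Ptprc and Cx3cr1 were highest in P0 replicate 3, and Cd79a and Itgae in P0 replicate 2. Cd68 (99, against 168 and 130) and Itgam (85, against 108 and 125) had their lowest P0 counts in replicate 1. Ptprc, the pan-leukocyte antigen, was below 1 CPM in every library, at 0.665, 0.212 and 0.707 CPM at P0 and 0.195, 0.329 and 0.563 CPM at P10, and was not called. Markers of mesenchyme and smooth muscle summed to 74.3, 13.7 and 28.1 CPM in the P0 libraries and 29.6, 11 and 19.7 CPM in the P10 libraries. Of these, 2 of 14 were called lower (14.3%, beside 9.89% of all genes), and 0 without P0 crypt replicate 1. Erythroid markers summed to 14.1, 1.93 and 3.15 CPM in the P0 libraries and 0.916, 0.493 and 0.498 CPM in the P10 libraries. All 3 erythroid genes tested were called lower, and none without P0 crypt replicate 1. Endothelial markers summed to 1.96 to 5.43 CPM over the 6 libraries, and no endothelial or neural marker was called. These sums were highest in P0 crypt replicate 1, as were those of the enterocyte, lysosome and interferon genes, and the immune sum there was mostly Csf1r. The part of the marker genes in those results was not tested.

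**Figure D4:**
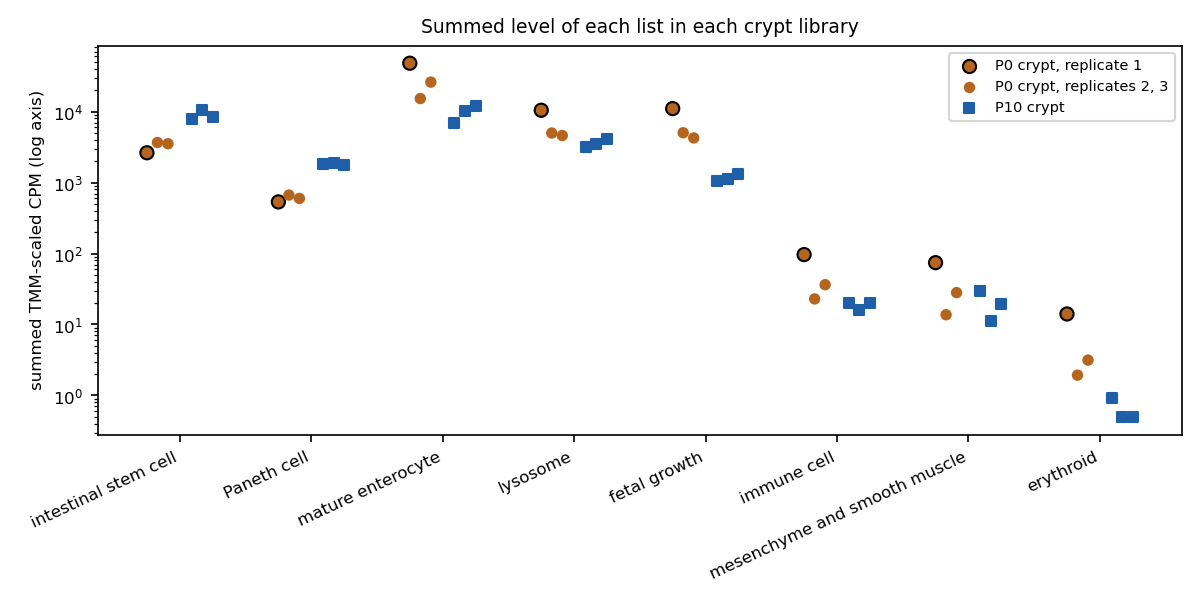
Summed TMM-scaled CPM (y axis, log scale) of 8 gene lists (x axis) in each crypt library; circles are P0, with replicate 1 outlined in black, and squares are P10. P0 replicate 1 had the lowest summed level of stem cell and Paneth genes and the highest of the other 6 lists.

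The same change was measured in villus cells, the CD44-negative population of the same ages, with 3 libraries each. There 1742 genes were called higher at P10 (10.5%) and 1816 lower (11%). A test of whether the change with age differed between crypt and villus called 0 genes (0%) by edgeR's quasi-likelihood test, with 1157 genes at an unadjusted p below 0.05 and a smallest adjusted p of 0.208. DESeq2 called 9, with 1352 at an unadjusted p below 0.05, and limma-voom 0. Without P0 villus replicate 1 the test called 1076 genes, 236 with a more positive change in crypt than in villus and 840 with a more negative one, so that library decides the count. With any other P0 or P10 library left out the test called 0 or 1 gene. The list counts of that fit are thus a description and no support for a difference. Those calls held 7 of 19 Paneth genes, all more positive in crypt, beside 1.43% of all genes. More negative in crypt were 9 of 30 mature enterocyte genes, 6 of 24 stem cell genes, 9 of 28 mitosis genes and 10 of 25 cell junction genes, beside 5.09% of all genes.

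Values are therefore given side by side. Mature enterocyte genes had a median change of -1.43 in crypt, with 22 of 30 called lower, and of -0.04 in villus, with 5 called lower. Without P0 crypt replicate 1 the crypt median was -1.04, with 11 called lower. Mitosis genes had a median of 0.10 in crypt and 0.74 in villus, where 17 of 28 were called higher. Paneth genes had a median of 3.59 in crypt and 2.08 in villus, where 13 of 19 were called higher. Lgr5 rose by 1.82 in crypt and by 3.10 (adjusted p = 1.18e-05) in villus, and Fabp1 fell by 3.24 in crypt and by 1.81 (adjusted p = 0.00716) in villus. Igf2 fell by 4.12 and by 2.83 (adjusted p = 0.000761), and H19 by 5.65 and 4.62 (adjusted p = 0.000856).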

How the data were processed

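Read counts per gene symbol were deposited by the authors for 23 libraries in 8 groups, of which the 6 crypt libraries of P0 and P10 are described. Trim Galore, STAR, HTSeq and the build mm9 are named, without versions, per the submitters' processing notes. The strand setting and the handling of reads with several alignments are not given in the sources used here. The 5 summary lines per library were left out. Between 6.80% and 12.5% of listed reads lay outside any gene in the 6 libraries, and 2.98% to 5.91% of the counts were mitochondrial.

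All libraries were fitted together with edgeR 4.0.16 in R 4.3.3: filterByExpr (minimum count 10, minimum total 15) kept 16535 of 47593 symbols, TMM scaling, then robust quasi-likelihood fits with a coefficient for each group (15 residual degrees of freedom, common dispersion 0.0622). The contrasts were P10 against P0 in crypt, in villus, and their difference, each adjusted over all genes by Benjamini and Hochberg with a threshold of 0.05. The procedure was first tested on simulated data. No pair of replicates agreed within sampling noise.

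The members and the 35 gene lists were chosen with earlier results of these data known; a few genes the naming rule picks are not reported here. The genes named are the 12 largest calls per direction (mean log2 CPM of at least 3, groups without overlap, called also without P0 crypt replicate 1), per list the 4 largest called and up to 2 uncalled members with the highest mean, and a fixed set of 40, of which part are printed. Of 147 genes with values in the text, 25 lie outside this rule and were chosen after their values were seen: Anpep, Apoa4, Apob, Ccl28, Cdca7, Creb3l3, Defa22, Dgat2, Fzd7, H2-Aa, H2-Ab1, Habp2, Igf2bp1, Igfbp4, Lamb3, Mogat2, Mttp, Plagl1, Ptprc, Rnf43, Slc5a1, Smoc2, Tcf7, Tlr3 and Wls. Bounds against a group at 0 use a floor of 3 counts over the group, and ratios of low counts have exact 95% intervals. Libraries carry no molecular identifiers, so floors and intervals cover counting error only. GC content came from GENCODE transcripts matched by symbol for 96.5% of tested genes. Promoter windows came from RefSeq. Alternatives were DESeq2's size factors, library totals alone, no filter, DESeq2 1.42.0, limma-voom (limma 3.58.1), only the groups compared, no P3 and P6 libraries, a block for the replicate number, and leaving out single libraries.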

Additional observations from a re-analysis of the deposited data

How the results depend on the processing

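With all 23 libraries, 1194 genes were called higher and 1635 lower. Scaling by library totals alone gave 2023 and 955. Leaving out each crypt library in turn gave 615 to 1049 higher and 830 to 1512 lower, lowest for the higher calls without P0 crypt replicate 1 and for the lower calls without P10 crypt replicate 1. Under the other 7 alternatives, from DESeq2 to a replicate block, both counts were within 1.5 times. The fit with a replicate block called 1105 higher and 1448 lower, and same-numbered libraries of P0 and P10 had correlations of their deviations from the group means of 0.0189, -0.0127 and -0.0862, so the numbers were not taken as pairs. The difference between crypt and villus gave 0 calls, 2 with no filter on low counts and 9 with DESeq2, and 0 to 1076 with each library left out, where P0 villus replicate 1 gave 1076 and P10 villus replicate 1 gave 1. Of 223 called list members and named genes, 114 were called under all 14 alternatives. Of 115 called genes with values in the text, 90 were called with each crypt library left out in turn. Without P0 crypt replicates 1, 2 and 3 in turn, 19, 8 and 7 lost their call, and without P10 crypt replicates 1, 2 and 3, 19, 21 and 20. Genes named as the largest calls had to stay called without P0 crypt replicate 1, and no such condition was set for the other libraries. The 19 for that library therefore cannot be compared with the other counts. Rac1 and Myh9 lost their calls in all 6 of these fits, and Apob, Ccnb1, Itga6 and Smo in 5. Calls lost only without other libraries were those of Bmp2 and Bmp3 (each without P0 replicate 2), Nts (without P0 replicate 2), Rrm2 (without P0 replicate 3), Lin28b (without P10 replicate 2) and Sfrp5 (without P10 replicate 1), and all but Sfrp5 also without a further library. Folds also moved by over 1.5 times without P10 crypt replicate 3 for H19 (-6.65), Igf2 (-4.75), Igf2os (-5.55) and Cd36 (-4.98), without P10 replicate 1 for Col4a1 (-5.85), Ghrl (-3.69) and Lin28b (-3.37), without P0 replicate 2 for Scd2 (-5.46) and Egln3 (-3.30), and without P0 replicate 3 for Ciita (5.41), Itga1 (2.94) and Reg3a (3.38), on the log2 scale. Uncalled genes with values in the text whose sign reversed under library totals alone were Cd24a (0.093), Hes1 (0.0853) and Prdm1 (0.0588). With each crypt library left out, Cdx2 ranged from -0.000835 to 0.152, Hes1 from -0.392 to 0.179, Prdm1 from -0.3 to 0.0198 and Sis from -0.118 to 1.01. The cause was not tested. With 3 libraries per group and genes below 1 CPM, falls such as that of Lin28b rest on few counts, and Lin28b did not pass the filter without P0 crypt replicate 1.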

Other observations

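The crypt libraries of the ages between, P3 and P6, give values with no test here. Their counted transcripts had a mean GC content of 44.28% to 47.03%, below all 6 libraries of P0 and P10, and the part of this in their levels was not tested. The 3 libraries per age are given by their range. H19 was at 424 to 584 CPM at P3 and 66.8 to 206 CPM at P6, so it was below every P0 library at both ages. Igf2 was at 137 to 238 CPM at P3 and 88.4 to 152 CPM at P6. Lgr5 was at 105 to 215 CPM at P3 and 299.9 to 374 CPM at P6, the latter above every P10 library. Olfm4 was at 1946 to 3474 CPM at P3 and 3946 to 6929 CPM at P6, which overlapped P10. Axin2 and Sp5 did not share that course. Axin2 was at 46.3 to 69.4 CPM at P3 and 70.9 to 84.6 CPM at P6, and Sp5 at 1.16 to 1.61 CPM and 1.49 to 1.73 CPM, all far below P10.

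Paneth genes differed among themselves in the same libraries. Defa24 was at 202 to 259 CPM at P3 and 85.0 to 176 CPM at P6. Lyz1 was at 5.09 to 7.84 CPM at P3, within the range of P0, and at 8.52 to 30.0 CPM at P6. Gm15284 stayed below 8 CPM in each of these libraries and was at 60.4 to 80.1 CPM at P10. Cd36 was at 40.1 to 88.6 CPM at P3 and 22.4 to 77.9 CPM at P6, so its low level was seen at P10 and not at the earlier ages.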
